A study of Homo sapiens with 38 samples.

Results

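The genes described here mark whether a cell carries an epithelial or a mesenchymal programme, together with the keratins that form the epithelial cytoskeleton. They were followed in RKO cells, a human colorectal cancer line, during exposure to LSD1 inhibitors. The 10 genes were chosen by name, as the rows of the RNA table that carry the symbols VIM, CDH1, EPCAM, ZEB1, ZEB2, SNAI2, KRT8, KRT18, KRT19 and KRT81, and all 10 were found among 25504 genes. KRT81 was picked because of its level in one library, so its values are given as a description without a test. The other genes were also chosen with earlier results of these data known, and their p-values are read with that limit.

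The series holds 38 samples, of which the 8 RNA sequencing libraries were used. One library was made for each of 4 treatments on day 30 and on day 4. DMSO libraries came from cells given the vehicle alone. NCD38 is a small-molecule inhibitor of the histone demethylase LSD1, and P4_NCD38 and PIPP_NCD38 are its conjugates with pyrrole-imidazole polyamides, which bind the minor groove of DNA. The polyamide of P4_NCD38 holds pyrrole units only, whereas that of PIPP_NCD38 has an imidazole unit in place of one pyrrole. Each inhibitor was given at 2 µM in 0.1% DMSO, with the medium renewed every 5 days, as the labels state it. The methods text writes the day 4 dose in mM, and the labels were followed. All libraries share the one cell line, none has a replicate, and the day 30 cells, DMSO included, had also been kept and passaged for longer. Day of treatment and any difference in how the libraries of each day were made therefore cannot be told apart.

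Epithelial cells are held together by E-cadherin, the product of CDH1, and by the adhesion molecule EPCAM, and their cytoplasm is braced by filaments in which a type II keratin such as KRT8 pairs with a type I keratin such as KRT18 or KRT19. Mesenchymal cells use vimentin, the product of VIM, for their filaments. The zinc finger repressors SNAI1, SNAI2, ZEB1 and ZEB2 silence epithelial genes through E-box sequences, and SNAI factors recruit LSD1 through their SNAG domain. KRT81 is a type II keratin of hair and is also made by some cancer cells.

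Levels are given as FPKM, fragments scaled to transcript length and library size, so levels of different genes can be compared. Between 12500000 and 22800000 fragments per library were estimated from the step that a single fragment leaves in the values, and counting intervals are 95% intervals from fragments so estimated. They cover counting error only, not the spread between cultures. In RNA from whole cultures, fewer cells of a kind and less RNA per cell cannot be told apart.

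The label of a colorectal epithelial line held in part. Of 12 markers of colon epithelium, 4 had a mean of at least 1 FPKM, namely the intestinal transcription factor CDX2, KRT8, KRT18 and EPCAM. EPCAM reached it only through day 30 and lay between 0.0922 and 0.867 FPKM on day 4. Another 4, CDX1, GPA33, KRT20 and VIL1, were listed at 0 in every library. Markers of other cell types were at or near 0: the 7 fibroblast markers summed to at most 0.027 FPKM, the 5 leukocyte markers to at most 0.0801 FPKM and the 4 endothelial markers to at most 0.0152 FPKM in any library.

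The promoter sequences were taken from RefSeq tables on GRCh38.p14, which held 10 windows for 4 of the genes, VIM, ZEB1, ZEB2 and KRT8. CDH1, EPCAM, SNAI2, KRT18, KRT19 and KRT81 were not matched. ZEB1 and VIM are shown because the zinc finger factor and the filament gene stand for the mesenchymal side of the list and behaved differently between days. Each window is the 250 bases before a listed start, 5′ to 3′ on the plus strand, and capitals mark the E-box CAGGTG, searched on both strands (CACCTG on the other). The ZEB1 window is chr10:31318167-31318416, before the outermost of its 7 listed starts, and the VIM window is chr10:17227991-17228240.
ZEB1: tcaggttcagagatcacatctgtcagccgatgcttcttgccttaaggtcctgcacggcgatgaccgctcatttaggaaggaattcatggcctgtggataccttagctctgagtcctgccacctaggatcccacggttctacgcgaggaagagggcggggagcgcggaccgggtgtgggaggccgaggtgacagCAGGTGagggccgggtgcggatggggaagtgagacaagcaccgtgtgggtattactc
VIM: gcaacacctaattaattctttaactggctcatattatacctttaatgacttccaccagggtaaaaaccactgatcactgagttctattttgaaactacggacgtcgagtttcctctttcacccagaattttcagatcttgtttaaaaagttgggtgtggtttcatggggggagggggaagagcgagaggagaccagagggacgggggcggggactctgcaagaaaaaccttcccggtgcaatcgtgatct

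The E-box in the ZEB1 window began 57 bases before the start. Among the 7 ZEB1 windows and the windows of VIM, ZEB2 and KRT8, 2 held the motif, both of ZEB1. The second, chr10:31318966-31319215, is not shown and held 2 matches, which began 242 and 85 bases before its own start. Of all 35116 promoter windows searched, 17.5% held it. A match describes letters and does not show binding.

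KRT18 was by far the most abundant of the 10 genes, with a mean of 103 FPKM, higher than the mean of 95.1% of the genes above 0 in at least 1 library. KRT8 followed at 13.0 FPKM and ZEB1 at 10.8 FPKM. VIM had a mean of 4.28 FPKM and EPCAM of 2.98 FPKM. ZEB1 was above KRT8 in each day 30 library and below it in each day 4 library. EPCAM was above VIM in 3 of 4 day 30 libraries and below it in all 4 of day 4, so neither pair was separated beyond its spread. KRT81 had a mean of 0.522 FPKM and KRT19 of 0.0825 FPKM. CDH1 at 0.0144 FPKM and SNAI2 at 0.00484 FPKM rested on at most 3.86 estimated fragments in any library, and ZEB2 was listed at 0 in all 8. The keratin pair of simple epithelia was thus present at a high level in cells in which transcripts of E-cadherin were at the limit of detection.

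CDH1 was listed at 0 in 5 libraries. The others were NCD38 on day 30 with 0.0358 FPKM, P4_NCD38 on day 30 with 0.0642 FPKM and NCD38 on day 4 with 0.0151 FPKM. The highest of these stood for 3.86 estimated fragments, with a counting interval from 0.017 to 0.167 FPKM, and 3 fragments in the DMSO library of day 30 would give 0.0343 FPKM. No difference in CDH1 was therefore detectable at this depth.

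SNAI2, a member of the SNAI family, was listed at 0 in all libraries but P4_NCD38 on day 30, where its 0.0388 FPKM stood for 1.06 estimated fragments. ZEB2, the partner of ZEB1 in its family, was listed at 0 throughout, where 3 fragments would give at most 0.0259 FPKM. Among the 13 transcription factors of epithelial-mesenchymal transition that were listed, 3 had a mean of at least 1 FPKM, namely ZEB1, SNAI1 and TCF3. SNAI1, the founding member of the SNAI family, lay between 4.57 and 6.31 FPKM on day 30 and between 4.19 and 6.12 FPKM on day 4, so its groups overlapped. KDM1A, which encodes LSD1 itself, lay between 38.0 and 72.1 FPKM over all libraries.

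The first comparison asked how the genes differed between day 30 and day 4 across the treatments. A linear model on log2(FPKM + 1) with limma used treatment as a block and left 3 residual degrees of freedom. It tested the 10865 genes with a mean of at least 1 FPKM, among them 5 of the 10 genes here. EPCAM and ZEB1 were higher on day 30 and none was lower, against 30.2% of all genes tested called higher and 31.7% called lower. EPCAM, at most 0.867 FPKM on day 4, met the filter only through day 30, so its direction says nothing beside these shares. The median difference was 0.26 over the 5 genes and -0.017 over all genes. Since most genes tested were called, and the calls followed GC content, a call by itself does not set a gene apart.

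ZEB1, the repressor, was at 19.0 FPKM with DMSO, 20.6 FPKM with NCD38, 20.8 FPKM with P4_NCD38 and 16.2 FPKM with PIPP_NCD38 on day 30. On day 4 it was at 1.36 FPKM with DMSO, 0.854 FPKM with NCD38, 2.0 FPKM with P4_NCD38 and 5.32 FPKM with PIPP_NCD38. All day 30 libraries were above all day 4 libraries, including the DMSO controls. The difference was 2.73 ± 0.36 on the log2 scale (SE, limma adjusted p = 0.00182).

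EPCAM, the epithelial adhesion molecule, was at 3.94 FPKM with DMSO, 5.04 FPKM with NCD38, 6.3 FPKM with P4_NCD38 and 6.53 FPKM with PIPP_NCD38 on day 30. On day 4 the corresponding levels were 0.28, 0.0922, 0.815 and 0.867 FPKM, which stood for 1.93 to 18.4 estimated fragments. EPCAM thus met the filter of a mean of at least 1 FPKM only through its day 30 levels. The days did not overlap, and the difference was 2.11 ± 0.16 on the log2 scale (SE, limma adjusted p = 0.000546). An epithelial adhesion gene and a repressor of epithelial genes were thus both higher on day 30.

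VIM, KRT8 and KRT18 did not pass the test. VIM was at 4.09, 4.29, 4.82 and 4.04 FPKM on day 30 with DMSO, NCD38, P4_NCD38 and PIPP_NCD38, and at 3.67, 2.17, 5.26 and 5.88 FPKM on day 4 in the same order. The day 4 values spanned those of day 30, and the difference was 0.08 ± 0.23 (SE, limma adjusted p = 0.786). KRT8 differed by 0.07 ± 0.33 (SE, limma adjusted p = 0.861) and KRT18 by 0.26 ± 0.16 (SE, limma adjusted p = 0.211).

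GC content moved with the difference between days. Across 10172 genes with a matched transcript, the difference had a Spearman correlation of -0.68 with transcript GC content, given as a description since the genes share their libraries. ZEB1 has a transcript of 38.9% GC, and genes of like GC content had a median difference of 1.17. EPCAM has 44.3% GC with a corresponding median of 0.39, whereas VIM, KRT8 and KRT18 have 54.3%, 59.3% and 58.2% GC with medians of -0.56, -0.77 and -0.74.

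With the GC trend of each library subtracted, ZEB1 still differed by 1.52 ± 0.17 (SE, limma adjusted p = 0.00103) and EPCAM by 1.7 ± 0.16 (SE, limma adjusted p = 0.000637). VIM then passed the test at 0.66 (limma adjusted p = 0.0214), KRT8 at 0.86 (limma adjusted p = 0.0428) and KRT18 at 0.98 (limma adjusted p = 0.00221). All 5 were thus called higher on day 30 on that scale, where 28.1% of the 10172 genes were called higher and 27.8% lower, so whether the 3 filament genes differed between days depends on the treatment of GC content.

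Without the pair of NCD38 libraries, KRT8 and KRT18 also passed, at 0.48 and 0.44 (limma adjusted p = 0.0186 and 0.00746).

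**Figure D1:**
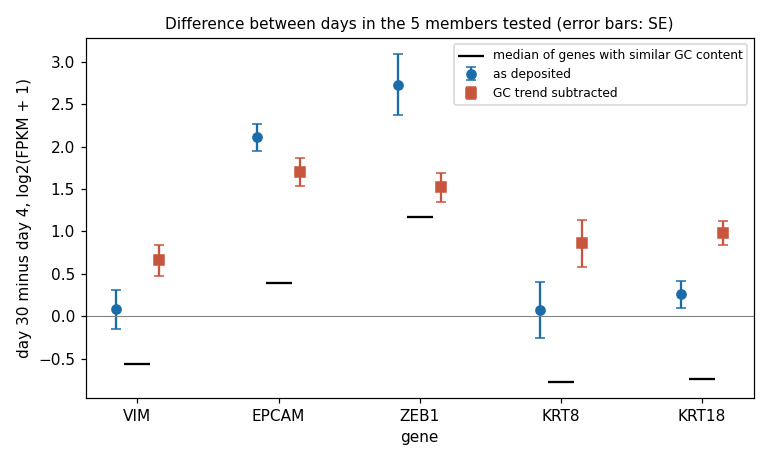
Difference between day 30 and day 4 on the log2(FPKM + 1) scale for the 5 genes tested, with SE bars, from values as deposited (circles) and with the GC trend subtracted (squares), and the median difference of genes of like GC content (horizontal marks). The marks are from values as deposited and apply to the circles only, and the circles of all 5 genes lay above them. VIM, KRT8 and KRT18 moved from 0.08, 0.07 and 0.26 as deposited to 0.66, 0.86 and 0.98 with the GC trend subtracted.

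ZEB1-AS1, a non-coding RNA transcribed from the opposite strand at the ZEB1 start and looked up after the values were seen, ran between 1.31 and 1.64 FPKM on day 30 and between 0.237 and 0.759 FPKM on day 4. It too was without overlap between days. The share of all genes without overlap was not counted, so this does not set ZEB1-AS1, ZEB1 or EPCAM apart. The library kit keeps strand, but whether strand was used in counting is not given in the sources used here.

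The wider lists behind the 10 genes did not move as one. Of 41 epithelial genes in the table, 13 were tested, of which 2 were higher on day 30, 5 were lower and 6 did not pass, with a median of -0.15. Besides EPCAM the riser was MUC1, a cell surface mucin, at 0.7 ± 0.21 (SE, limma adjusted p = 0.0294). MUC1 lay between 0.489 and 0.922 FPKM on day 4. EPCAM and MUC1 thus reached a mean of 1 FPKM only through their day 30 levels. Genes of the list under that mean were not tested, so the counts higher and lower depend on the filter. SPINT1, an inhibitor of membrane serine proteases, fell from between 58.2 and 69.6 FPKM on day 4 to between 12.7 and 22.0 FPKM on day 30, a difference of -1.97 (limma adjusted p = 0.000542). LSR, a protein of tricellular junctions, fell by 0.94 and LLGL2, a cell polarity gene, fell by 0.92 on the log2 scale, and with the GC trend subtracted both were within 0.15 of no difference (limma adjusted p = 0.208 and 0.296).

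Of 40 mesenchymal genes, 16 were tested, of which 3 were higher on day 30, 6 were lower and 7 did not pass, with a median of -0.14. TPM2, a tropomyosin, rose from between 1.86 and 4.25 FPKM to between 14.6 and 27.9 FPKM, a difference of 2.41 (limma adjusted p = 0.0015). AKAP12, a scaffold protein, rose by 2.16 (limma adjusted p = 0.0121). AXL, a receptor tyrosine kinase, fell from between 187 and 205 FPKM to between 45.1 and 57.6 FPKM, and the ligand TGFB1 fell from between 98.6 and 149 FPKM to between 22.9 and 41.1 FPKM (limma adjusted p = 0.000399 and 0.000373). The shares called in both lists are read against the 30.2% and 31.7% of all genes, and neither list went one way.

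Among the transcription factors, TCF3, an E-protein, fell by 1.1 on the log2 scale (limma adjusted p = 0.00395), a call lost with the GC trend subtracted (-0.31, limma adjusted p = 0.277), and SNAI1 differed by 0.01, which became 0.73 and passed with the GC trend subtracted (limma adjusted p = 0.0067). Of the corepressors that SNAI and ZEB factors use, CTBP1 fell by 0.99 (limma adjusted p = 0.00108, and 0.207 with the GC trend subtracted), while KDM1A differed by -0.4 and CTBP2 by 0.65 without passing. With the GC trend subtracted CTBP2 passed at 0.64 (limma adjusted p = 0.0106) and KDM1A did not (limma adjusted p = 0.517). PLEC, the plectin that links keratin filaments to other structures, fell by 0.62 (limma adjusted p = 0.0127, and 0.785 with the GC trend subtracted), and EVPL and TCHP did not pass. With the GC trend subtracted both passed as higher on day 30, EVPL at 0.67 and TCHP at 0.76 (limma adjusted p = 0.0095 and 0.0148). Of the other intermediate filament genes, 3 of 4 tested were lower, against 31.7% of all genes, the lamins LMNA (-0.85) and LMNB2 (-1.26) and the nestin gene NES (-0.71), and LMNB1 did not pass at 0.25. With the GC trend subtracted, LMNB2 alone of these remained called, at -0.56 (limma adjusted p = 0.0178).

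The second comparison set the 6 libraries with an inhibitor against the 2 with DMSO, in the same model with day as a block. None of the 5 genes passed, against 0.0276% of all genes, which is 3 genes, and 37 genes with an unadjusted p under 0.05. EPCAM was nearest, 0.38 ± 0.19 higher with an inhibitor (SE, limma adjusted p = 1.0). Against DMSO of its day, EPCAM differed by 0.29, 0.56 and 0.61 on day 30 with NCD38, P4_NCD38 and PIPP_NCD38. Genes of like GC content had medians of 0.07, 0.15 and -0.02 there. On day 4 its differences were -0.23, 0.5 and 0.54 in that order, where genes of like GC content had medians of -0.59, 0.27 and 0.54. ZEB1 differed by 0.24 ± 0.41, VIM by 0.11 ± 0.27, KRT18 by -0.06 ± 0.19 and KRT8 by -0.12 ± 0.38 (SE).

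Each inhibitor was then set against DMSO of the same day, where 1 library per condition allows no test and genes were counted that differed by 2-fold or more on the log2(FPKM + 1) scale. The 3 inhibitors of a day share their DMSO library, so these comparisons are not independent. On day 30, the only such gene with NCD38 was KRT8, against 1.66% of all genes. With P4_NCD38 there was none among the 5 genes with a mean of at least 1 FPKM, against 1.0% of all genes. KRT81, below that level, was picked for its value in this library and is not counted. With PIPP_NCD38 there was none, against 1.17% of all genes. On day 4 there was none with NCD38, against 5.41%, and none with P4_NCD38, against 1.91%. With PIPP_NCD38 it was ZEB1, against 11.2% of all genes.

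KRT8 was at 6.58 FPKM with NCD38 on day 30, the lowest of the 8 libraries, against 15.4 FPKM with DMSO, 19.0 FPKM with P4_NCD38 and 13.6 FPKM with PIPP_NCD38 on that day. On day 4 it was at 11.5 FPKM with DMSO, 15.9 FPKM with NCD38, 11.9 FPKM with P4_NCD38 and 9.96 FPKM with PIPP_NCD38. The level with NCD38 on day 30 was 0.426 times that with DMSO (counting interval 0.359 to 0.503), and -1.12 on the log2 scale, while genes of like GC content had a median of 0.0. Counted from the lowest ratio, KRT8 ranked 56 in that comparison among the 10865 genes and 19 among the 9807 whose transcripts reach 500 nt. On day 4 the difference with NCD38 was 0.44, in the opposite direction, where genes of like GC content had a median of 0.17.

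KRT18, the usual partner of KRT8, was at 121 FPKM with DMSO, 99.3 FPKM with NCD38, 117 FPKM with P4_NCD38 and 108 FPKM with PIPP_NCD38 on day 30. On day 4 it was at 90.0, 121, 87.6 and 76.2 FPKM in that order. With NCD38 on day 30 it was 0.823 times the DMSO level (counting interval 0.779 to 0.868), a smaller difference than that of KRT8.

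The ratio of KRT18 to KRT8 set the library with NCD38 on day 30 apart from the rest. It lay between 6.18 and 7.93 in 7 libraries, with counting intervals reaching from 5.57 to 8.76, and was 15.1 with NCD38 on day 30 (counting interval 13.1 to 17.5). On day 4, where NCD38 had the highest level of both genes, the ratio was 7.62 with NCD38 and 7.84 with DMSO. KRT8 and KRT18 have near-identical pseudogenes, so their levels are uncertain to the extent that reads were shared. Of these, KRT18P55 was listed at 0.023 to 0.0472 FPKM on day 30 and at 0.207 to 0.733 FPKM on day 4. KRT8P41 was listed at 0 in each day 30 library and at up to 0.0269 FPKM on day 4.

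ZEB1 with PIPP_NCD38 on day 4 was 3.9 times the DMSO level of that day (counting interval 3.22 to 4.75), or 1.42 on the log2 scale. In the same comparison genes of like GC content had a median of 0.81, and over 10172 genes GC content and log2 ratio were related with a Spearman coefficient of -0.69, given as a description. On day 30 the difference was -0.22, with a ratio of 0.853 (counting interval 0.803 to 0.906). The part of GC content in the day 4 value was not tested.

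By the labels the compounds share a dose and days, so the conjugates could be compared with the parent. The 4 such comparisons and the 2 between the conjugates are each of 1 library with 1 library, and no p-value is given. On day 30, KRT8 alone of the 5 genes with a mean of at least 1 FPKM was 2-fold or more apart between P4_NCD38 and NCD38, against 1.86% of all genes. KRT81, also 2-fold apart there, was picked for its P4_NCD38 level and is not counted. For PIPP_NCD38 against NCD38 there was none, against 1.91%, with KRT8 just under at 0.95. On day 30 KRT8 was 2.88 times its NCD38 level with P4_NCD38 (counting interval 2.43 to 3.43) and 2.07 times with PIPP_NCD38 (counting interval 1.75 to 2.45), both ratios resting on the one low NCD38 library. On day 4 it was the other way, at 0.744 times (counting interval 0.635 to 0.871) and 0.626 times (counting interval 0.531 to 0.736). Genes of like GC content had log2 medians of -0.19 and -0.3 there.

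On day 4 none of the genes was 2-fold or more apart between P4_NCD38 and NCD38 on the log2(FPKM + 1) scale, against 17.7% of all genes. VIM was at 0.98. As plain FPKM ratios, EPCAM was 8.83 times (counting interval 2.04 to 83.9) and ZEB1 2.35 times (counting interval 1.75 to 3.17) the NCD38 level. EPCAM rested on 1.93 estimated fragments with NCD38. Genes of like GC content had log2 medians of 0.84 for EPCAM and 0.79 for ZEB1. KRT18 was lower, at 0.723 times, as was KRT8. Between PIPP_NCD38 and NCD38 there were 2, VIM and ZEB1, against 31.8% of all genes, a share too high for these to stand out. There the plain ratios were 9.4 for EPCAM (counting interval 2.21 to 88.4), 6.23 for ZEB1 (counting interval 4.82 to 8.16) and 0.629 for KRT18. Genes of like GC content had log2 medians of 1.14 for EPCAM and 1.22 for ZEB1. VIM was 2.42 times (counting interval 1.79 to 3.31) and 2.71 times (counting interval 2.02 to 3.67) its NCD38 level in the conjugate libraries, while genes of like GC content had a median of 0.08 on the log2 scale in each. All genes tested had medians of 0.3 and 0.45. Both VIM ratios rest on the one NCD38 library of day 4, where VIM was lowest, with 63.1 estimated fragments. On day 30 the same VIM ratios were 1.12 (counting interval 0.883 to 1.43) and 0.941 (counting interval 0.759 to 1.17), both intervals including 1.

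Between the conjugates, none of those 5 genes was 2-fold or more apart on day 30, against 1.24% of all genes. On day 4 it was ZEB1, against 1.78%. KRT81 with P4_NCD38, the value it was picked for, was 23.1 times its PIPP_NCD38 level on day 30 (counting interval 10.3 to 63.4). ZEB1 on day 4 was lower with P4_NCD38, at 0.377 times the level with PIPP_NCD38 (counting interval 0.311 to 0.454), a log2 difference of -1.07 where genes of like GC content had a median of -0.44. EPCAM did not separate the conjugates on either day, with ratios of 0.964 (counting interval 0.768 to 1.21) and 0.94 (counting interval 0.452 to 1.94).

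KRT81, the hair keratin, was at 3.27 FPKM with P4_NCD38 on day 30, from 78.7 estimated fragments. On that day it was at 0.563 FPKM with NCD38, 0.141 FPKM with PIPP_NCD38 and 0.089 FPKM with DMSO. On day 4 it was at 0.0776 FPKM with DMSO and 0.0425 FPKM with P4_NCD38, and was listed at 0 with NCD38 and PIPP_NCD38. The P4_NCD38 level on day 30 was 36.7 times that of DMSO, with a wide counting interval of 12.3 to 174 since DMSO held 3.12 estimated fragments. NCD38 came second, 6.33 times DMSO (counting interval 1.88 to 32.2) and above every library but P4_NCD38 of day 30.

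KRT81 lies on chromosome 12 at 52679697 to 52685318 (GRCh37, minus strand, 9 exons in the reference transcript). This whole span of 5622 bases lies within the span of KRT86, a hair keratin gene on the plus strand at 52668429 to 52702947. KRT86 was at 0.307 FPKM with P4_NCD38 on day 30 and at most 0.0146 FPKM elsewhere, and the 2 genes cannot be fully told apart if strand was not used in counting. Of the other hair keratins nearby, KRT83 and KRT85 were above 0 only with P4_NCD38 on day 30, at 0.0664 and 0.0108 FPKM. These stood for 1.56 and 0.33 estimated fragments, too few to show a difference. KRT82 and KRT84 were listed at 0 in every library.

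KRT19, a type I keratin of simple epithelia on chromosome 17, was also highest in that library, at 0.467 FPKM from 8.11 estimated fragments. It was at 0.0952 FPKM with PIPP_NCD38 and 0.0433 FPKM with NCD38 on day 30 and at 0.0551 FPKM with NCD38 on day 4, and was listed at 0 in the other 4 libraries. Its ratio to NCD38 on day 30 was 10.8, with a counting interval from 1.46 to 469. KRT7, a type II keratin looked up after the values were seen, was at 0.74 FPKM with P4_NCD38 and 0.257 FPKM with NCD38 on day 30 and at most 0.141 FPKM elsewhere. Of 55 keratin genes in the table, 19 were above 0 in at least 1 library, and 9 of these, KRT81 included, were highest with P4_NCD38 on day 30. That library had the lowest estimated depth, 12500000 fragments, so a single fragment gives the highest FPKM there. KRT83 and KRT85, on 1.56 and 0.33 estimated fragments, are among the 9. The share of all genes highest in that library was not counted, so the count does not set keratins apart. KRT15 went the other way, listed at 0 in that library and at 0.171 to 0.371 FPKM in the others. Only KRT8, KRT18 and KRT10 had a mean of at least 1 FPKM. KRT10, a keratin of suprabasal epidermis, had a mean of 9.26 FPKM, with 6.74 FPKM in its lowest library.

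A search made after the KRT81 values were seen took genes whose transcripts reach 500 nt, with at least 1 FPKM with P4_NCD38 on day 30 and at least 4 times the level of every other library. Without the limit on length it returned 16 genes, and with it 7, namely KRT81, AKR1B1, S100A9, UCA1, WFDC2, CASP1 and SAA1. The same search returned TICAM2 with PIPP_NCD38 on day 30 and nothing in each of the other 6 libraries. AKR1B1 encodes aldose reductase, S100A9 a subunit of calprotectin and SAA1 an acute-phase protein. UCA1 is a long non-coding RNA, WFDC2 encodes a secreted protease inhibitor-like protein and CASP1 the protease that matures interleukin-1β. The genes lie on different chromosomes except CASP1 and SAA1, both on chromosome 11.

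With NCD38 on day 30, KRT81 stood at 17.3% of its P4_NCD38 level (counting interval 9.75% to 29.0%). AKR1B1 stood at 20.3% (counting interval 9.92% to 38.4%), S100A9 at 14.9% (counting interval 3.87% to 43.1%) and UCA1 at 10.3% (counting interval 4.51% to 20.8%). CASP1 and WFDC2 were listed at 0 with NCD38 on that day. The 7 genes were chosen for their peak and are no independent measure of it. With 1 library per condition, whether the peak recurs in another culture was not tested.

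**Figure D2:**
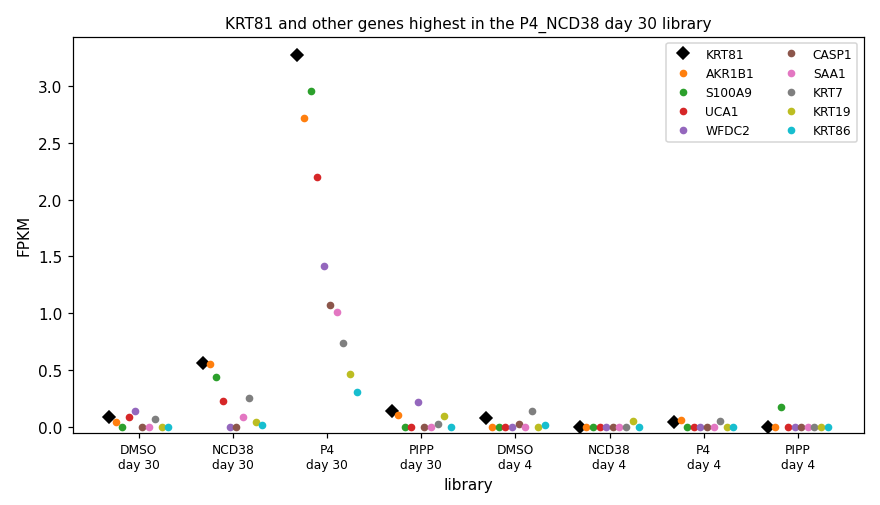
FPKM of KRT81 (diamonds), the other 6 genes found by the search and the keratins KRT7, KRT19 and KRT86 in each library, with P4 and PIPP for the conjugates of NCD38 and 1 point per library and gene. Levels were highest with P4_NCD38 on day 30, where KRT81 reached 3.27 FPKM, and NCD38 on day 30 was second for KRT81 at 0.563 FPKM.

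By Pearson correlation of log2(FPKM + 1) over the 8 libraries, given without a test, the genes most like KRT81 were the short RNAs MIR135A1, MIR614 and SNORD12 at 0.957, each listed at 0 in all libraries but P4_NCD38 on day 30 and so tied with others. The genes most like VIM were LPIN2 at 0.991, SCO1 at 0.99 and GOSR1 at 0.99. All were lowest with NCD38 on day 4 and highest with PIPP_NCD38 on day 4, as VIM was. SCO1, which encodes an assembly factor of cytochrome c oxidase, went from 5.45 to 19.7 FPKM between those libraries. The genes most like KRT18 were HIGD2A at 0.965, NR2C2AP at 0.958 and CHCHD10 at 0.95. HIGD2A and CHCHD10 encode mitochondrial proteins.

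In the reference annotation on GRCh37, KRT8 (53290975 to 53298860, minus strand) and KRT18 (53342902 to 53346690, plus strand) are neighbours on chromosome 12. VIM (17270240 to 17279592) and ZEB1 (31608145 to 31818732) lie on the plus strand of chromosome 10. EPCAM lies on chromosome 2 (47596450 to 47614159, plus strand), as does ZEB2 (145141648 to 145277686, minus strand). CDH1 lies on chromosome 16 (68771195 to 68869440, plus strand), KRT19 on chromosome 17 (39679869 to 39684560, minus strand) and SNAI2 on chromosome 8 (49830157 to 49833988, minus strand).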

How the data were processed

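RNA was sequenced with a stranded mRNA kit, 1 library for each of 4 treatments on 2 days. The authors aligned reads with TopHat and assembled transcripts with Cufflinks per their methods, while the submitters' processing notes name HISAT2 2.2.1.0, Cufflinks and hg19. The deposited table gives FPKM per gene, normalized by the authors for library size and transcript length, without counts. FPKM under 0.0001 were read as 0 (1575 values), and 90 entries with repeated names were left out, so the table's 25594 entries gave 25504 genes. Transcripts came from GENCODE release 44 on GRCh37, which matched 10172 of the 10865 genes tested (93.6%).

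Tests used limma 3.58.1 in R 4.3.3 (moderated test with trend, Benjamini-Hochberg adjustment over the 10865 genes) on log2(FPKM + 1), so fold changes of low genes are understated, and the fit was checked on simulated data. It has 8 libraries and no replicates, so its spread is that left after day and treatment, and p-values measure only that. Fragments were estimated as FPKM times transcript length times the estimated depth. Intervals of ratios are exact conditional binomial intervals, those of the KRT18 to KRT8 ratio use a normal approximation on the log scale, and those of levels are exact Poisson intervals. The 10 genes and all lists were chosen with earlier results of these data known. Genes named were the 10 genes, keratins with a mean of at least 1 FPKM, KRT86, KRT83, KRT85, from each list the 3 most abundant and the 2 with the largest day difference in each direction, and the 3 most like KRT81, VIM and KRT18. 1 gene that this rule names is not reported here. AKR1B1 and the other genes of the KRT81 search, KRT7, KRT15, KRT82, KRT84, ZEB1-AS1, KRT18P55 and KRT8P41 were added after values were seen. Alternatives were another pseudocount, no filter, centring, the GC trend, no block, left-out libraries, and other filters, scalings and DMSO libraries for single comparisons. Chromatin samples were not used here.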

Additional observations from a re-analysis of the deposited data

Results flagged for a closer look

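Genes that differed from DMSO by 2-fold or more on one day and in the opposite direction on the other, under the same inhibitor, were singled out. With 1 library per condition the difference between days was not tested in any of them. KRT8 with NCD38 was -1.12 on the log2(FPKM + 1) scale on day 30 and 0.44 on day 4. Genes of like GC content had medians of 0.0 and 0.17 in these comparisons. KRT81 with P4_NCD38 was 1.97 on day 30, the value it was picked for, and -0.05 on day 4, where it rested on 1.06 and 2.64 estimated fragments and its ratio of 0.548 had a counting interval from 0.0119 to 7.43, so no opposite direction is shown. ZEB1 with PIPP_NCD38 was -0.22 on day 30 and 1.42 on day 4, where genes of like GC content had a median of 0.81. Groups of 4 replicates, which a search for single outlying samples needs, do not exist in this design.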

How the results depend on the processing

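EPCAM and ZEB1 were called higher on day 30 under each of the 9 alternatives, at 1.7 to 3.43 (limma adjusted p 5.85e-05 to 0.00822) and 1.52 to 3.26 (limma adjusted p 0.000137 to 0.0171). VIM, KRT8 and KRT18 changed side with the GC trend subtracted, and KRT8 and KRT18 also without the NCD38 pair, as given with the results, where the cause was not tested. Of 45 alternative counts over all genes, 26 moved by more than 1.5 times. For any inhibitor against DMSO the 3 genes became 1 without the filter, 1 with the GC trend subtracted, and 0 to 24 with 1 library left out. None of the 5 genes tested passed in any of these 12 alternatives, with EPCAM at 0.27 to 0.56. Genes 2-fold from DMSO on day 30 numbered 327 with NCD38 and 170 with P4_NCD38 at a pseudocount of 0.1, and 95, 35 and 47 for NCD38, P4_NCD38 and PIPP_NCD38 with at least 1 FPKM in both libraries. On day 4 they numbered 1669, 623 and 2416 at a pseudocount of 0.1. At least 1 FPKM in both libraries left 90 with P4_NCD38 on day 4, and rescaling by the median ratio left 294 with NCD38 and 754 with PIPP_NCD38. With the DMSO library taken from the other day they numbered 4493, 4721 and 4623 on day 30 and 5734, 3939 and 3276 on day 4, and ZEB1 with PIPP_NCD38 on day 4 turned to -1.66. KRT8 with NCD38 on day 30 was then -0.72 and under 2-fold, and KRT18 turned from -0.28 to 0.14. That setting compares days as well as treatments. KRT81 with P4_NCD38 on day 30 was 4.15 at a pseudocount of 0.1. The comparison of days pairs libraries by treatment as a block, and without that block 7277 genes were called in place of 6722. Depth limits CDH1, SNAI2, ZEB2 and KRT19, where a few fragments decide each value.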
